A study of Homo sapiens with 267 samples.

Results

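Expression of 10 imprinted genes was described in libraries of K562, an established human line from a chronic myelogenous leukaemia that expresses foetal and embryonic globins. The genes were DLK1, MEG3, IGF2, H19, KCNQ1OT1, CDKN1C, PEG10, SGCE, PEG3 and SNRPN. They were chosen from well-known imprinted loci, with their levels in these libraries known from earlier work, and are 10 of the 63677 genes of the count table. The levels below are therefore a description, and no test was made on them. Cells were captured on the Fluidigm C1, a microfluidic device in which RNA of single cells is turned into cDNA, amplified with SMARTer chemistry and made into Nextera XT libraries.

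The libraries fell into 5 groups in 3 runs. The Hoechst run (96 libraries) held untreated cells at passages 90 to 92, stained with Hoechst 33342 and propidium iodide. The benzene run held untreated cells stained with CellTracker Green CMFDA (36 libraries with counts) and cells stained with CellTracker Orange CMRA that were given 10 mM benzene for 3 h (35 libraries). The imatinib run held untreated Green cells (51 libraries) and Orange cells given 1 µM imatinib, an inhibitor of the BCR-ABL kinase, for 1 h (45 libraries). Cells of both CellTracker runs were at passages 20 to 22 and also carried a LIVE/DEAD Fixable Red stain. By the study's methods the Hoechst run used another lot of K562 and another sequencer, and its libraries include cells positive for propidium iodide, so that run, lot, passage, sequencer and dead cells cannot be told apart. Within the CellTracker runs the dye and the drug cannot be told apart. The study fixed part of its cells with a reversible crosslinker and added bulk samples, and which libraries these are was not mapped here. By its account fixed cells were a larger part of the experiment of the Hoechst run and were stored for longer. Fixation and storage thus also cannot be told apart from that run, and the share of fixed cells in each stain group is not known here.

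The labels name no separate cultures within a group, so its libraries were taken as cells of 1 sample and not as replicates of a condition, and no p-value is given. A library was kept where at most 70% of its reads lay in its 500 highest genes, which left 82, 31, 34, 50 and 45 libraries in the order given above, 242 of 263. Depth in the kept libraries was 50358 to 2043351 reads on genes, and 12 of them had over 10000 genes detected and may be bulk samples. Levels are in CPM, counts per 1000000 reads on genes, of the reads summed over the libraries of a group. Exact 95% Poisson intervals follow such a sum and exact binomial intervals follow a share of libraries, and both cover counting error only, since the reads carry no molecular identifiers. The label K562 was borne out by its markers, with all 10 erythroid and K562 genes (globins, GATA1, TFRC, PRAME and others) detected in every group at a summed 7757 to 9325 CPM. Of 5 fibroblast markers none was detected in 20% of the libraries of any group, at a summed 0.67 to 22.0 CPM, and LUM was at 0 in every group. Of 6 lymphoid markers the summed level was 11 to 137 CPM, of which the T cell receptor subunit CD3D made 130 CPM in the Hoechst run, and of 5 epithelial or endothelial markers 34.2 to 49.8 CPM, nearly all EPCAM. KRT5, CDH5 and VWF were at 0 in every group.

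An imprinted gene is read from the copy of 1 parent, by methylation set in the germ line at a control region. Neighbours under such a region are often read from opposite parents. At the locus of DLK1 and MEG3 the Notch-ligand-like protein DLK1 comes from the father's copy and the long non-coding RNA (lncRNA) MEG3 from the mother's. At the IGF2 and H19 locus the growth factor IGF2 is paternal and the lncRNA H19 maternal, and the insulator protein CTCF decides which of them reaches shared enhancers. KCNQ1OT1 is a long nuclear RNA from the father's copy that silences neighbours in cis, among them CDKN1C (p57), an inhibitor of cyclin-dependent kinases that slows growth. PEG10, a gene derived from a retrotransposon, and SGCE, a sarcoglycan, share a promoter region and are both paternal, as are the zinc finger gene PEG3 and SNRPN, which encodes a spliceosomal protein. DLK1, H19 and IGF2 are typical of foetal tissue, and DLK1 also marks early blood progenitors. The counts do not separate the parental copies, so nothing below is a measure of imprinting itself.

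Where the start of transcription lies was looked up in RefSeq (GRCh38.p14), whose table of promoters held windows of 250 bases before and 50 bases after the start for 3 of the 10 genes. They are shown because they set a gene that was read in most cells of the Hoechst run (H19) beside genes that gave next to no reads (MEG3, SNRPN). Capitals mark CG dinucleotides, the sites at which imprints are carried by methylation, which was not measured here. The windows are chr11:2001217-2001516 (minus strand), chr14:100825858-100826157 (plus strand, the first of 3 overlapping windows) and chr15:24954737-24955036 (plus strand, the third of 4).
H19: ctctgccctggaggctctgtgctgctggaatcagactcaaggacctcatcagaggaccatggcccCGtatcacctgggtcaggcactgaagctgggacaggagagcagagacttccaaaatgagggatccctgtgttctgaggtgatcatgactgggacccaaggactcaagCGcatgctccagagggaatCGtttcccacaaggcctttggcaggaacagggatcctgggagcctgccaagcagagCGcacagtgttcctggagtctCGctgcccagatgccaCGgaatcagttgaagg
MEG3: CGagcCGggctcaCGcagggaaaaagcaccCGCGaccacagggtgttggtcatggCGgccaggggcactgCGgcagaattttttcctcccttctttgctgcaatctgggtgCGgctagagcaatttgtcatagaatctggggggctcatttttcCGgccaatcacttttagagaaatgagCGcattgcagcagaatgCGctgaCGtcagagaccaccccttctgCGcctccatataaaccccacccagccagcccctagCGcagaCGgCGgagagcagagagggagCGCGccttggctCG
SNRPN: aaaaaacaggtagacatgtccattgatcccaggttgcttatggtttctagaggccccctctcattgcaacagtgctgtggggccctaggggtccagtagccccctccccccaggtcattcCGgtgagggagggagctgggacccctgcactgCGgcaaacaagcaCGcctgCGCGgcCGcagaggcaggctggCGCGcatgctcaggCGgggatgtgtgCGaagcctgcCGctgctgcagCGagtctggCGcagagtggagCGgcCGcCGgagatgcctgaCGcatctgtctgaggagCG
The H19 window held 6 CG pairs, the MEG3 window 19 and the SNRPN window 18, where the median over 35116 windows of all genes was 14. The other 3 SNRPN windows held 7, 2 and 11. On either strand the MEG3 window held TATAAA, the TATA box, found in 11.5% of all windows, and TGACGTCA, the cAMP response element, found in 1.85%. GCGCATGC, the core of the NRF1 motif, was in the H19 window, in the SNRPN window shown but none of its other 3, and in 3.05% of all windows. These motifs were picked after the sequences had been read, and a match is not a binding site.

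Of the 10 genes, 4 were broadly detected and 6 were at or near 0. DLK1 gave 79870 reads in the 242 libraries, KCNQ1OT1 44924, CDKN1C 10762 and H19 8767, whereas MEG3 gave 271, PEG10 43, PEG3 5 and SNRPN 1, and IGF2 and SGCE gave none. Neighbours did not go together at 2 of the loci, where DLK1 was read and MEG3 hardly at all, and H19 was read and IGF2 not at all.

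**Figure D1:**
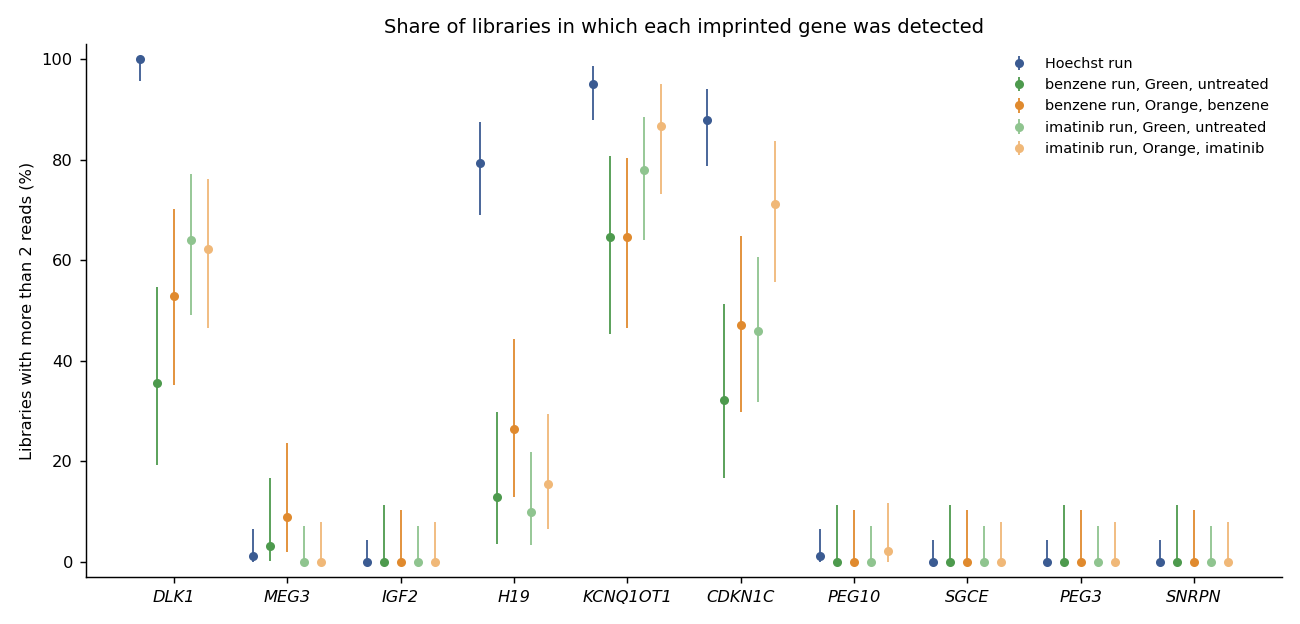
Share of kept libraries (y axis, %) with more than 2 reads of each of the 10 imprinted genes (x axis), with exact 95% binomial intervals, in colours for the 5 groups. DLK1, H19, KCNQ1OT1 and CDKN1C are detected in every group and most often in the Hoechst run, while each of the other 6 genes is detected in at most 8.82% of the libraries of a group.

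DLK1, the membrane protein of foetal tissues and progenitors (chr14:101192042-101204561, plus strand, GRCh37), was the most abundant of the 10 in the Hoechst run. Its level there was 612 CPM (interval 607 to 617), against 69.1 CPM in Green and 146 CPM in Orange libraries of the benzene run, and 42.8 CPM in Green and 67.6 CPM in Orange libraries of the imatinib run. In single libraries of the Hoechst run it lay between 1.85 and 1967 CPM with a median of 506 CPM, and all 82 libraries had more than 2 reads. In the CellTracker runs the pattern was another, with many libraries at 0 and a few very high. Most imatinib-run libraries at 0 lay among the lower library numbers of that run, and which libraries were fresh or fixed was not mapped. Green libraries of the benzene run ranged from 0 to 1157 CPM with a median of 0, and 11 of 31 (35.5%, interval 19.2 to 54.6) had more than 2 reads. Its Orange libraries ranged from 0 to 2247 CPM with a median of 8.47 CPM and 18 of 34 (52.9%) detected. In the imatinib run Green libraries reached 289 CPM (median 11 CPM, 64% detected) and Orange libraries 676 CPM (median 19.9 CPM, 62.2% detected). The ranges overlapped between all groups, but 75 of 82 Hoechst libraries lay at or above 100 CPM, against 4 of 31, 5 of 34, 8 of 50 and 7 of 45 in the others.

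The spread of DLK1 over libraries differed between the runs. How much of it lies between lower and higher library numbers of a run was not tested. The coefficient of variation (CV) of its CPM over libraries was 74.8% in the Hoechst run, near the median of 70.1% over 437 genes whose mean lay within 2-fold of its own. In the CellTracker groups it was 328% against 182% for such genes in benzene-run Green, 316% against 135% in benzene-run Orange, 160% against 129% in imatinib-run Green and 211% against 115% in imatinib-run Orange. A single library held 59.3% of the DLK1 reads of benzene-run Green (library 57, 1733 reads) and 41.1% of those of benzene-run Orange (library 6, 2765 reads), so the summed levels of that run rest on few cells.

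H19, the maternal lncRNA (chr11:2016396-2025782, minus strand), was largely a transcript of the Hoechst run. It reached 79.3 CPM there (interval 77.6 to 81), with single libraries between 0 and 527 CPM, a median of 29.8 CPM, and 65 of 82 libraries (79.3%) detected. In the CellTracker groups it was at 2.37, 1.74, 1.94 and 3.74 CPM (benzene-run Green and Orange, imatinib-run Green and Orange), with a median library of 0 in each. It was detected in 4 of 31, 9 of 34, 5 of 50 and 7 of 45 of those libraries, which is 12.9%, 26.5%, 10.0% and 15.6%, and the highest single library among them had 70.2 CPM. Within the Hoechst run 14 libraries held no H19 read, most of them among the lowest library numbers, and 21 held at least 100 CPM. Which libraries were fresh or fixed was not mapped, so a split along the run was not tested. The CV of H19 in that run, 138%, was close to the 146% of genes of like mean.

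KCNQ1OT1 (chr11:2618538-2721233, minus strand), the nuclear lncRNA that is read across an intron of KCNQ1, was detected in most libraries of every group. Levels were 227 CPM in the Hoechst run (interval 224 to 230), 36.7 and 144 CPM in benzene-run Green and Orange, and 60.6 and 163 CPM in imatinib-run Green and Orange. Its exons span 92.6 kb in the annotation, against 5.25 kb for DLK1, 3.46 kb for H19 and 2.48 kb for CDKN1C. Per kb of exon its level in the Hoechst run was 2.45 CPM, against 117 for DLK1, 29.8 for CDKN1C and 22.9 for H19, so by length it was the lowest of these 4 genes there. The median library had 146 CPM in the Hoechst run (0 to 2118), 4.96 CPM in benzene-run Green (0 to 415) and 21.7 CPM in benzene-run Orange (0 to 784). In the imatinib run the median library had 22.9 CPM in Green (0 to 516) and 115 CPM in Orange (0 to 801). All these ranges overlapped. The number of libraries at 100 CPM or more was 49 of 82, 2 of 31, 12 of 34, 9 of 50 and 24 of 45 in the same order. The shares with more than 2 reads were 95.1%, 64.5%, 64.7%, 78% and 86.7%. The CV of KCNQ1OT1 was above the median of genes of like mean in all 5 groups, at 136% against 93.5% in the Hoechst run, 264% against 211%, 151% against 138%, 155% against 115% and 115% against 82%.

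CDKN1C (chr11:2904443-2907005, minus strand), the growth inhibitor in the domain that KCNQ1OT1 silences, was at 74 CPM in the Hoechst run (interval 72.4 to 75.7). It was at 11.1 and 8.06 CPM in benzene-run Green and Orange and at 13 and 24.6 CPM in imatinib-run Green and Orange. Single libraries ranged from 0 to 348 CPM in the Hoechst run with a median of 48.4 CPM, and 72 of 82 (87.8%) were detected. In benzene-run Green the median was 0 (highest 164 CPM, 32.3% detected) and in Orange 1.76 CPM (highest 56.5 CPM, 47.1% detected). In imatinib-run Green the median was 1.74 CPM (highest 105 CPM, 46% detected) and in Orange 15.4 CPM (highest 132 CPM, 71.1% detected). At least 10 CPM was reached by 66 of 82, 5 of 31, 6 of 34, 12 of 50 and 26 of 45 libraries, so that imatinib-run Orange stood between the Hoechst run and the other groups. Its CV lay below that of genes of like mean in the Hoechst run (97.2% against 144%), benzene-run Orange (185% against 251%) and imatinib-run Orange (123% against 162%), and above it in both Green groups (291% against 234%, and 198% against 188%).

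**Figure D2:**
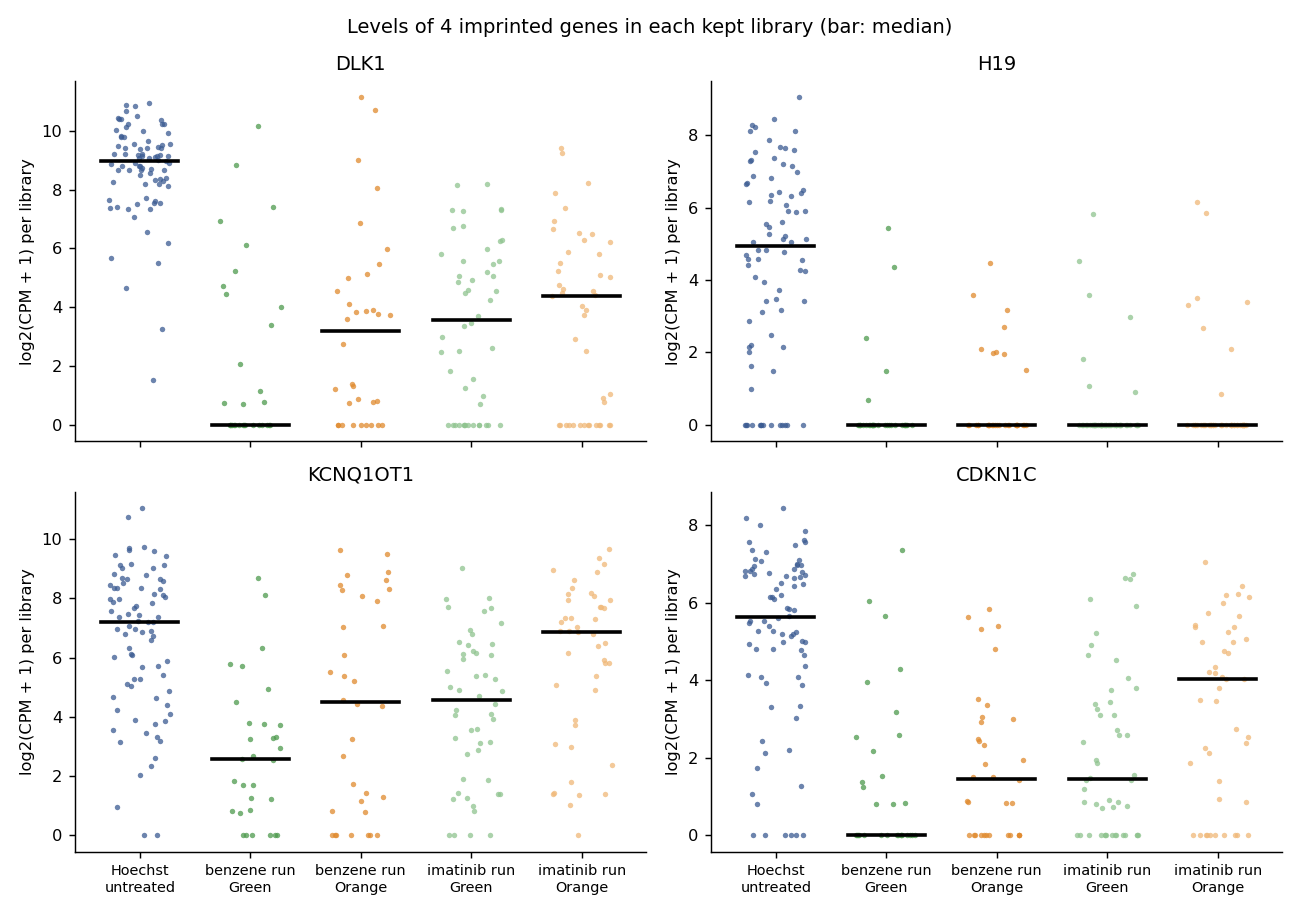
Level of DLK1, H19, KCNQ1OT1 and CDKN1C in each kept library (points, log2 of CPM + 1) by group, with the median as a bar. The Hoechst run has the highest median for all 4 genes, H19 has a median of 0 in the other 4 groups, and points of KCNQ1OT1 in both Orange groups gather higher than in the Green group of the same run.

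The other 6 genes were at or under the level at which single cells could be compared. MEG3 (chr14:101245747-101327368, plus strand), the lncRNA next to DLK1, had 271 reads in 19 libraries, and 214 of them (79%) came from library 60 of benzene-run Orange, where MEG3 reached 154 CPM. That library also had the most KCNQ1OT1 reads of its group (1091), and its DLK1 level was 6.87 on the log2(CPM + 1) scale. More than 2 reads of MEG3 were found in 1 of 82, 1 of 31, 3 of 34, 0 of 50 and 0 of 45 libraries. PEG10 (chr7:94285637-94299007, plus strand) had 43 reads in 5 libraries, 35 of them in library 77 of the Hoechst run, which was also the library with the most DLK1 reads (3107). Its head-to-head neighbour SGCE (chr7:94153516-94285884, minus strand) had no read in 242 libraries, which allows up to 1.51% of libraries with more than 2 reads (exact upper limit) and does not limit the share of cells that express it. IGF2 (chr11:2150342-2179621, minus strand) had no read in a kept library. PEG3 (chr19:57321445-57352096, minus strand) had 5 reads, 1 each in 5 Hoechst libraries, and SNRPN (chr15:25068784-25223870, plus strand) had 1 read, in library 60 of imatinib-run Green.

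The counting rules bear on some of these zeros. Reads that fell on more than 1 gene were set aside by the counter, and in a later annotation 44.4% of the exon length of IGF2, 50.9% of that of PEG3 and 43.9% of that of SNRPN is shared with other genes. For the other 7 members the shared length was at most 3.27%. The overlapping genes INS-IGF2, ZIM2 and SNURF had no reads, and SNHG14, the long host transcript over the SNRPN locus, had 194. Reads lost in the shared stretches cannot be counted here, and with counting not stated to use strand, reads of SGCE and PEG10 over their 5′ ends, or of KCNQ1OT1 and KCNQ1 (0 reads), would not be told apart.

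The groups were then set side by side, to ask how far the genes moved with the run, with the dye and drug, and between untreated cells of separate runs. A gene was counted in a comparison where more than 2 reads were found in at least 20% of the libraries of either group, and it was called where the log2 ratio of CPM, with 1 CPM added to each level, was at least 1 (2-fold). With each group taken as 1 sample there is no replicate check of any ratio, and the intervals given for them cover counting error only. The comparisons share groups, so they are not independent of one another.

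By summed level all 4 detected genes were higher in the Hoechst run than in untreated Green cells of either CellTracker run. H19 and DLK1 were so by the most. Over benzene-run Green, H19 was 23.9-fold higher (log2 ratio 4.58, interval 4.34 to 4.81), DLK1 8.74-fold (3.13), CDKN1C 6.18-fold (2.63) and KCNQ1OT1 6.06-fold (2.60). Over imatinib-run Green the folds were 27.3 for H19 (4.77), 14 for DLK1 (3.81), 5.37 for CDKN1C (2.42) and 3.71 for KCNQ1OT1 (1.89). Among all genes counted, 26.7% were higher by at least 2-fold and 38.4% past 2-fold in either direction in the first comparison (11052 genes), and 20.6% and 33.6% in the second (11719 genes). The earlier results in view when the genes were chosen included these runs, so nothing is read from the count of 4 of 4. Nor is anything read from the median log2 ratio, which was 2.88 and 3.12 over the 4 genes and 0.27 and 0.13 over all genes counted. H19 passed the 20% filter through the Hoechst run alone, being detected in 12.9% and 10% of the Green libraries of the benzene and imatinib runs.

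The difference in mean log2(CPM + 1) between single libraries was set against the SD over libraries. For DLK1 it was 6.54 over benzene-run Green and 5.28 over imatinib-run Green, with SDs of 1.59 in the Hoechst run and 3.07 and 2.77 in the Green groups. For H19 the differences were 4.01 and 4.06, with SDs of 2.71 in the Hoechst run and 1.29 and 1.22 in the Green groups. For both genes the differences were thus larger than these SDs. With genes chosen when their levels were known, this describes the values and tests nothing. The median library of H19 was at 0 in both Green groups, where its SDs were small. CDKN1C, with differences of 3.75 and 3.06, also exceeded its SDs of 2.07 to 2.23. KCNQ1OT1 did so over benzene-run Green (3.85, SDs 2.43 and 2.39) but not over imatinib-run Green (2.32, SDs 2.43 and 2.49). Among Hoechst libraries that may be bulk, KCNQ1OT1 was at 4.67 in library 92 and at 7.88 to 8.34 in libraries 93 to 96. Library 91, with 9138 genes detected, was at 3.54. Green libraries that may be bulk were at 6.34 (benzene-run library 93) and at 4.44 and 6.46 (imatinib-run libraries 93 and 95). The higher level of KCNQ1OT1 was thus not seen in every such Hoechst library. Leaving out the library with the most reads of the gene on either side left the log2 ratios at 1.79 or more. The lymphoid marker CD3D moved in the same direction as the 4 genes (log2 ratio 1.65 and 3.62), as did TFRC and KLF1 over benzene-run Green (1.19 and 1.33), and their part in the result was not tested.

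**Figure D3:**
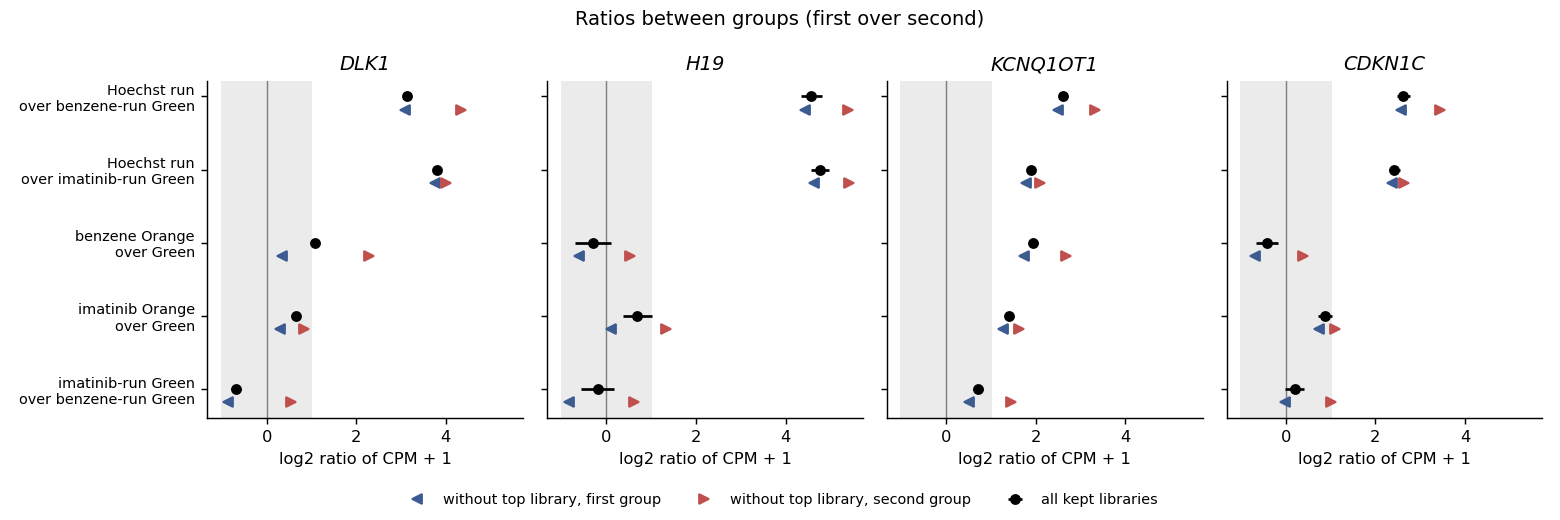
Log2 ratio (first group over second, 1 CPM added) of DLK1, H19, KCNQ1OT1 and CDKN1C in 5 comparisons. Black points with exact 95% counting intervals use all kept libraries, triangles leave out the library with the most reads of the gene in the first (blue) or second (red) group, and the grey band is less than 2-fold. All 4 genes lie beyond the band in both Hoechst comparisons, and KCNQ1OT1 does so in both Orange over Green comparisons whichever library is left out.

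Of the members counted, KCNQ1OT1 was the one that was at least 2-fold higher in Orange than in Green cells in both CellTracker runs. In the benzene run it was at 36.7 CPM in untreated Green and at 144 CPM in Orange cells with benzene, 3.86-fold (log2 ratio 1.95, interval 1.84 to 2.05). In the imatinib run it was at 60.6 and 163 CPM, 2.67-fold (1.42, interval 1.34 to 1.49). Without the top library of a side the ratio was 1.74 or 2.68 in the benzene run and 1.28 or 1.62 in the imatinib run. On the log2(CPM + 1) scale, libraries of over 10000 genes, which may be bulk, overlapped between the stains. In the benzene run Orange libraries 92 and 94 were at 4.38 and 7.04 and Green library 93 at 6.34. In the imatinib run Orange libraries 94 and 96 were at 3.88 and 7.31 and Green libraries 93 and 95 at 4.44 and 6.46. Without libraries of over 10000 genes the ratios were 2.05 and 1.44. The difference in mean log2(CPM + 1) was 1.61 and 1.62, below the SDs over libraries of 2.39 to 3.5 and of 2.49 to 2.66, so that single cells of the groups overlapped widely. Among all genes counted 12.9% were higher by at least 2-fold and 23.8% past it in either direction in the benzene comparison (10072 genes), and 3.76% and 8.06% in the imatinib comparison (11416 genes). The share of all genes higher by 2-fold in both runs was not computed, so how unusual a call in both is cannot be said here.

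The other members moved less, or on the strength of single cells. DLK1 was 2.10-fold higher in Orange than in Green cells of the benzene run (log2 ratio 1.07, interval 0.98 to 1.16), but the ratio was 0.35 without library 6 of Orange and 2.29 without library 57 of Green. In the imatinib run its ratio was 0.65 (0.30 without library 7 of Orange). CDKN1C had a ratio of 0.88 in the imatinib run (interval 0.71 to 1.04), and its share of libraries with more than 2 reads was 46% in Green (interval 31.8 to 60.7) and 71.1% in Orange (55.7 to 83.6). In the benzene run the ratio of CDKN1C was -0.42, and it was 0.39 without library 66 of Green. H19 had a ratio of -0.30 in the benzene run, 0.52 without library 57 of Green, and was detected in too few libraries to be counted in the imatinib run. Called genes, all higher, were thus 2 of 4 counted in the benzene run, DLK1 and KCNQ1OT1 (all genes 12.9% higher). In the imatinib run they were 1 of 3 (all genes 3.76% higher), and nothing is read from such small counts. MEG3 was not counted, and its 5.32 CPM in benzene-run Orange came nearly all from library 60.

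Between the untreated Green cells of the CellTracker runs none of the 3 genes counted differed by 2-fold. With the imatinib run over the benzene run, the log2 ratio was -0.68 for DLK1, 0.71 for KCNQ1OT1 and 0.20 for CDKN1C, while 19.9% of all genes counted were higher by 2-fold and 31.8% past it in either direction (11098 genes). Library 57 of benzene-run Green set the sign for DLK1, whose ratio was 0.54 without it, and KCNQ1OT1 and CDKN1C came to 1.44 and 1.02 without libraries 49 and 66 of benzene-run Green. In mean log2(CPM + 1) the imatinib run was higher for all 3, by 1.25, 1.53 and 0.69, below the SDs of 2.07 to 3.07.

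Neighbours at an imprinted locus were next compared over libraries of the same run. Of the 4 pairs, KCNQ1OT1 and CDKN1C was the one in which both genes were detected often enough to compare. Both were detected in 70 of 82 libraries of the Hoechst run, 17 of 65 of the benzene run and 45 of 95 of the imatinib run, where the product of their shares would give 68.5, 16.8 and 45.2. Spearman's rho of their CPM was -0.11, 0.02 and 0.03, where the median rho of KCNQ1OT1 with all genes of the run was 0.03, 0.04 and 0.01. By rho with KCNQ1OT1, CDKN1C was at rank 9332 of 10791 genes in the Hoechst run, 5133 of 9529 in the benzene run and 4544 of 10833 in the imatinib run. Within stain groups it was -0.01 and -0.02 in benzene-run Green and Orange, -0.28 in imatinib-run Green and 0.19 in imatinib-run Orange. The points share run, depth and number of genes detected, and no p is given for these values. RNA of the silencer and of its target was thus found in the same libraries about as often as their separate shares give. Some of these libraries may be bulk samples of many cells. With reads not split by parental copy, the counts do not bear on silencing in cis.

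In the other 3 pairs 1 partner was all but missing. DLK1 and MEG3 were detected together in 1 library of the Hoechst run, 2 of the benzene run and 0 of the imatinib run, and DLK1 alone in 81, 27 and 60. H19 was detected without IGF2 in 65, 13 and 12 libraries and IGF2 in none. PEG10 was detected without SGCE in 1, 0 and 1 libraries. Neither KCNQ1OT1 with CDKN1C nor DLK1 with MEG3 reached a rho of 0.3 in any run, and the other pairs have no rho, since a partner had no read.

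DLK1 and H19 are genes of separate loci. Both were detected in 65 of 82 Hoechst libraries, since DLK1 was in all of them, and rho was 0.26, rank 252 of 10791 genes by rho with DLK1. In the benzene run both were detected in 9 of 65 libraries, where the product of shares gives 5.80, and rho was 0.36, rank 75 of 9529 genes. In the imatinib run both were detected in 10 of 95 libraries, where the product of shares gives 7.58, and rho was 0.09. Library 57 of benzene-run Green and library 6 of benzene-run Orange had the most reads of both DLK1 and H19 in their groups (1733 and 63, 2765 and 26), and library 49 of the Hoechst run had the most of both H19 (910) and CDKN1C (442). This pair was looked at after its values were seen. The number of genes detected had a rho with DLK1 of 0.17, 0.14 and -0.15 and with H19 of 0.10, 0.26 and 0.20 in the Hoechst, benzene and imatinib runs.

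**Figure D4:**
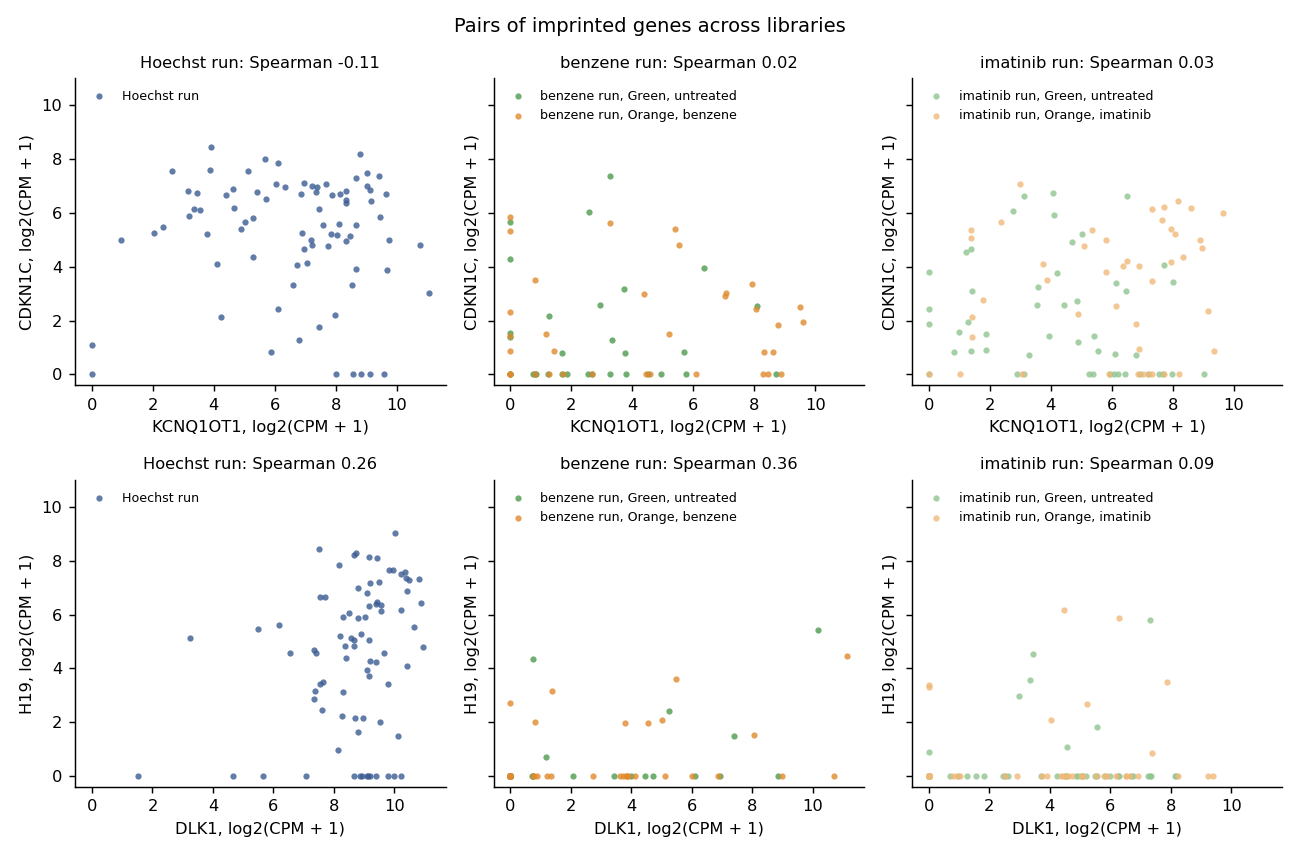
CPM on the log2(CPM + 1) scale of KCNQ1OT1 against CDKN1C (upper row) and DLK1 against H19 (lower row) in single libraries of each run, coloured by group. The upper panels show no common trend (Spearman -0.11, 0.02, 0.03), and the lower panels give Spearman 0.26, 0.36 and 0.09.

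The genes whose CPM ran most alike with each member over libraries were named by the mean of the Spearman's rho within runs, among 9061 genes (9062 for H19) that reached the 20% share of libraries in every run. For KCNQ1OT1 the nearest 3 were NEAT1 (mean rho 0.35 over 3 runs), STRIP2 (0.34) and MALAT1 (0.33). NEAT1 and MALAT1 are abundant lncRNAs of the nucleus. The rho with NEAT1 was 0.47 in the Hoechst run, 0.41 in the benzene run and 0.18 in the imatinib run, and that with MALAT1 0.29, 0.43 and 0.27, where the median over all genes was 0.02. Like KCNQ1OT1, both were higher in the Hoechst run, NEAT1 at 1453 CPM against 266 and 362 CPM in the Green groups and MALAT1 at 8977 CPM against 1707 and 1154 CPM. Unlike KCNQ1OT1, neither differed by 2-fold between Orange and Green cells, with log2 ratios of 0.21 and -0.35 for NEAT1 and 0.21 and 0.27 for MALAT1 in the benzene and imatinib runs.

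For DLK1 the nearest genes were MT-TP (mean rho 0.36), a mitochondrial transfer RNA, CELF2 (0.34), an RNA-binding splicing regulator, and MT-RNR2 (0.33), the large mitochondrial ribosomal RNA. For H19, over the Hoechst and benzene runs in which it was counted, they were DHX30 (0.36), SH2D2A (0.36) and ID1 (0.34), an inhibitor of basic helix-loop-helix factors. For CDKN1C they were COL6A5 (0.29), BAX (0.27), which promotes apoptosis, and CHPF (0.27). These values are the highest over all those genes and are weak, and the median rho over genes was 0.01, 0.04 and 0.02 for the 3 members.

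The wider set of imprinted genes was taken from a list of 50 further symbols, of which 46 are in the table and 15 were counted in each Hoechst comparison. Of these 15, 5 were higher and 0 lower in the Hoechst run than in benzene-run Green (all genes 26.7% higher), and 6 higher and 0 lower than in imatinib-run Green (all genes 20.6% higher). Between the Green groups 10 were counted, so some of the 15 passed the filter only through the Hoechst run. Nothing is read from the lack of lower genes. L3MBTL1, a chromatin reader of the polycomb family that is imprinted in blood cells, was at 23.1 CPM in the Hoechst run against 2.63 and 2.43 CPM (log2 ratio 2.73 and 2.81). INPP5F, a phosphoinositide phosphatase, was at 14.2 CPM against 4.59 and 1.89 CPM (1.44 and 2.40), and its first ratio was 0.89 without the top Hoechst library. The median log2 ratio over the 15 was 0.28 and 0.82, against 0.27 and 0.13 over all genes. GNAS, the stimulatory G protein subunit, was detected in all libraries of every group at 338 to 545 CPM, and IGF2R, the receptor that clears IGF2, in 67.6% to 95.6% of libraries at 91.4 to 121 CPM. MEST, NDN, MAGEL2 and NNAT were among the 31 listed genes that were detected in under 20% of the libraries of every group.

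In the drug comparisons MKRN3, a paternally read ubiquitin ligase, was called in both runs, at 12.5 against 3.71 CPM in the benzene run (log2 ratio 1.51) and at 21.1 against 9.42 CPM in the imatinib run (1.08, or 0.90 without the top Orange library). The share of all genes called higher in both runs was not computed. PLAGL1, a growth-restraining zinc finger factor, had a ratio of 1.19 in the benzene run that was -1.13 without 1 Orange library. RB1, the retinoblastoma tumour suppressor, had a ratio of -1.33 there and -0.42 without 1 Green library. In all, 2 of 10 counted genes were higher and 1 lower in the benzene run (all genes 12.9% higher, 23.8% in either direction), and 1 of 11 higher and 0 lower in the imatinib run (3.76% and 8.06%). Between the Green groups 1 of 10 was higher and 2 were lower in the imatinib run (19.9% and 31.8%).

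**Figure D5:**
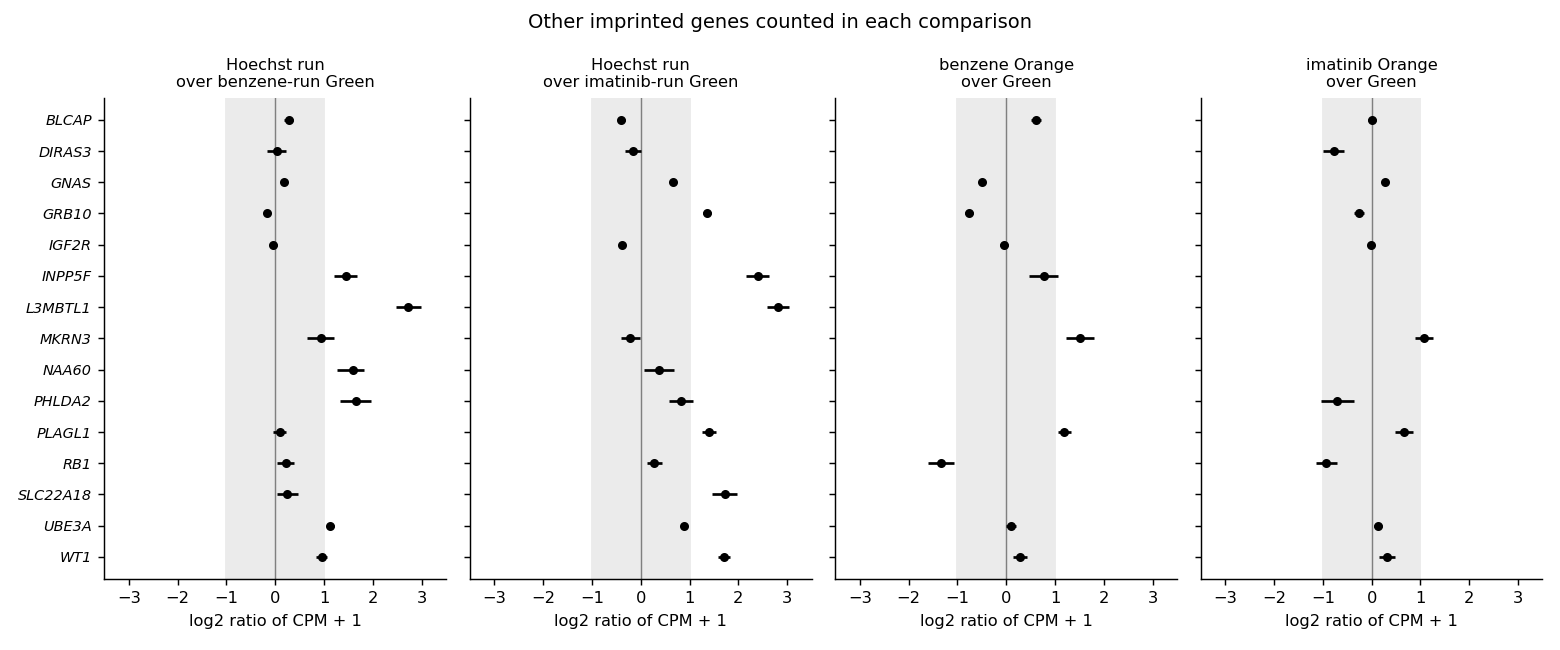
Log2 ratio (first group over second, 1 CPM added, exact 95% counting intervals) of the 15 other imprinted genes counted in at least 1 comparison. Genes not counted in a panel are left blank, and the grey band is less than 2-fold. L3MBTL1 and INPP5F lie beyond the band in both Hoechst panels and MKRN3 in both Orange over Green panels.

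Of 12 genes listed for setting or reading imprints, 9 were counted in every comparison, among them the maintenance methyltransferase DNMT1 (371 to 540 CPM), TRIM28 (152 to 313 CPM), CTCF (62.1 to 150 CPM) and its germ-line paralogue CTCFL (160 to 324 CPM). Over benzene-run Green 1 of the 9 was higher in the Hoechst run (all genes 26.7%), ZNF445 (log2 ratio 1.36), a zinc finger protein of imprint maintenance. Over imatinib-run Green 1 was higher (all genes 20.6%), the methyltransferase DNMT3A (1.16). None of the 9 was called in a drug comparison, where 23.8% (benzene) and 8.06% (imatinib) of all genes were past 2-fold. Nothing is read from so few genes. DNMT3A was lower in imatinib-run than in benzene-run Green (-1.03, all genes 11.9% lower). ZFP57, which binds methylated imprints, was detected in under 20% of the libraries of every group.

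Partners of the members were listed by role: binders and receptors of IGF2, Notch receptors for DLK1, inhibitors and targets beside CDKN1C, and spliceosomal proteins beside SNRPN. Of 14 genes, 12 were counted in each Hoechst comparison, 6 were higher and 0 lower over benzene-run Green (all genes 26.7% higher), and 4 higher and 0 lower over imatinib-run Green (all genes 20.6% higher). Between the Green groups 9 were counted, so here too some passed the filter only through the Hoechst run. CDKN1A and CDKN1B are the other inhibitors of the CDKN1C family. In the Hoechst run CDKN1A (p21) was at 9.56 CPM against 0.33 and 0.90 CPM (log2 ratio 2.99 and 2.47), and CDKN1B (p27) at 13.8 CPM against 5.70 and 3.90 CPM (1.15 and 1.60), the first of which was 0.89 without the top Hoechst library. In Orange over Green, CDKN1B was lower, with ratios of -2.00 and -1.06 in the benzene and imatinib runs, which came to -0.55 and -0.32 without the top Green library. Of the partners counted in the drug comparisons, 1 of 9 was higher in the benzene run (all genes 12.9%) and 1 of 10 in the imatinib run (all genes 3.76%). CDKN1B was the 1 that was lower in each, where 10.9% and 4.30% of all genes were lower. Nothing is read from these counts. NOTCH1, a receptor that DLK1 is known to restrain, was at 10.7 CPM against 1.11 and 2.14 CPM (2.46 and 1.89). IGF2BP1, which binds IGF2 and H19 RNA, was found in no fewer than 91.2% of libraries in each group, at 163 to 383 CPM, although IGF2 itself gave no read in a kept library.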

How the data were processed

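The authors trimmed reads with skewer, aligned them with HISAT2 to GRCh37 with the ERCC spike-in sequences, marked duplicates with Picard 1.92 and counted uniquely mapped reads per gene of Ensembl 75 with featureCounts (Subread 1.5.0), and the deposited counts were used as they stand. The sources used here do not say if duplicate reads were dropped before counting. In the benzene run 4 columns matched no library title and 4 titles matched no column, and neither were used. The 92 ERCC rows were left out of totals. The counting annotation was older than the GENCODE release (v44lift37, GRCh37) that gave names, coordinates and exon lengths here. It named 55665 of 63677 genes, which hold 99% of the reads.

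CPM, ratios, intervals and correlations were computed in Python (3.11.15), using pandas (2.3.3), numpy (2.4.6) and scipy (1.17.1), and matplotlib (3.10.9) drew the figures. No test was made, since the labels name no separate cultures within a group and each was taken as 1 sample. A gene was detected in a library at more than 2 reads. The steps were tested on simulated data. No libraries had identical counts. All 10 members are named, with the 3 genes most like each detected member and listed imprinted genes past 2-fold, up to 6 of them in both Hoechst comparisons and any in a drug comparison. Cell type markers, imprint regulators and partners came from further lists. The members and lists were chosen with earlier results of these data known. MALAT1 and NEAT1 ratios, DLK1 with H19, libraries named for the most reads, and CDKN1A and CDKN1B were singled out after their values were seen.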

Additional observations from a re-analysis of the deposited data

Results flagged for a closer look

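The ratio of CDKN1C in Orange over Green cells had opposite signs in the CellTracker runs, at -0.42 on the log2 scale in the benzene run (interval -0.68 to -0.17) and 0.88 in the imatinib run (interval 0.71 to 1.04). The difference between the runs was not tested, as each group was taken as 1 sample. The benzene value was 0.39 without library 66 of Green, which held 48.8% of the CDKN1C reads of its group, and 0.38 as a difference of mean log2(CPM + 1), so its sign rests on that library.

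More than 3 reads of each of 4 members were also present in the 21 libraries left out for having over 70% of their reads in 500 genes. Of these libraries 14 were from the Hoechst run. IGF2 had 1 read there, in Hoechst library 5. KCNQ1OT1 had 1788 reads there, DLK1 392, CDKN1C 66 and H19 16. In the 14 Hoechst libraries KCNQ1OT1 stood at 206 CPM and was detected in 12, with 737 reads in library 24, against 227 CPM in the kept libraries of that run. DLK1 stood at 40.3 CPM in the same 14 libraries against 612 CPM in the kept ones, CDKN1C at 8.02 against 74 CPM and H19 at 1.21 against 79.3 CPM.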

How the results depend on the processing

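No paired analysis was possible because the numbers in the titles only number the libraries of a run, and no test was made. Over 67 results, 542 alternative values were computed, 98 of them chosen after seeing the data, of which 417 stayed within counting error or, for counts of genes, within 1.5 times, and the rest moved. No called ratio of DLK1, H19, KCNQ1OT1 or CDKN1C changed sign, and of the other imprinted genes PLAGL1 did, from 1.19 to -1.13 in benzene Orange over Green without the top Orange library and from -1.30 to 0.06 in imatinib-run over benzene-run Green by the mean of log2. All 80 alternative values of the 4 members in the Hoechst comparisons stayed past 2-fold, from 1.67 (KCNQ1OT1, median-of-ratios scaling) to 6.54 (DLK1, mean of log2 over libraries). KCNQ1OT1 in Orange over Green stayed past 2-fold in all 10 alternatives of each run, at 1.61 to 2.68 with benzene and 1.28 to 1.62 with imatinib. Neither KCNQ1OT1 with CDKN1C nor DLK1 with MEG3 reached a rho of 0.3 in the 6 other settings.

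Members called higher in benzene-run Orange fell from 2 to 1, with the loss of DLK1, under median-of-ratios scaling (0.99), a pseudocount of 10 CPM (0.98) and without the top Orange library. In imatinib-run Orange they were 2 and not 1 by the mean of log2 and without the top Green library, CDKN1C being added (1.17 and 1.09). Between the Green groups they were 2 and not 0 by the mean of log2 and without the top benzene-run library.

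Of the other imprinted genes, those higher in the Hoechst run over benzene-run Green were 2 with a pseudocount of 10 CPM, 3 with libraries thinned to 500000 reads and 9 without a filter, and 1 was lower than in imatinib-run Green by the mean of log2. In benzene-run Orange, 0 were higher with a pseudocount of 10 CPM and by the mean of log2 and 4 without a filter, and 0, 2 and 4 were lower in the same order. In imatinib-run Orange, 0 were higher with a pseudocount of 10 CPM and by the mean of log2, and 1 was lower with all libraries, a pseudocount of 0.1 CPM or no filter. Between the Green groups, 0 were higher under median-of-ratios scaling and a pseudocount of 10 CPM, 2 by the mean of log2 and 4 without a filter, and 1 was lower with a pseudocount of 10 CPM and by the mean of log2. Their causes were not tested.

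Thinning left out 2 shallow Hoechst libraries and lowered the share of benzene-run Green libraries with KCNQ1OT1 from 64.5% to 45.2%. With each group taken as 1 sample, no ratio can be set against variation between cultures.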
